A study of Mus musculus with 26 samples.

Results

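In 1 blastomere of a mouse 8-cell embryo, 6765 bins of 40 kb were still unreplicated while the same bins were replicated in each of the 5 other analysed blastomeres of that embryo. The cell was embryo 2 cell 6, and the others were cells 2, 3, 5, 7 and 8. The bins were chosen on their measured states, so the states described below have no test. They made up 13% of the 51976 bins of the table, 13.5% of the 50126 bins with a state in all 6 cells, and 271 Mb in all. They are called private bins of cell 6 below.

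The study read replication state and RNA from the same single cells by scRR-seq, in which magnetic beads take up the genomic DNA after lysis and the RNA is recovered from the remaining liquid. Embryos were C57BL/6 embryos from in vitro fertilization, grown to the 8-cell stage without further treatment, and their blastomeres were separated by hand. Embryo 2 gave the 6 cells that define the private bins, and 3 cells of embryo 1 (cells 1, 6 and 7) were not used to choose them. Cells 2 and 3 of embryo 2 and cell 1 of embryo 1 were prepared by the scRR3 protocol, and cell 6, cells 5, 7 and 8 of embryo 2 and cells 6 and 7 of embryo 1 by scRR1, which uses a smaller lysis volume. All 6 cells came from 1 embryo, and each state and each RNA value came from 1 library per cell, so no comparison between cell 6 and the others has a replicate.

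During S phase each stretch of the genome is copied in a set order. Early replicating domains are rich in G and C bases and in genes, and late replicating domains are poor in both. A mid-S cell therefore holds domains with a doubled copy number beside domains that are still single, and scRepli-seq reads this as copy number in bins along the chromosomes. Preimplantation embryos are known for a replication program that is still being set up.

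The promoters of genes in the private bins show what kind of sequence they hold. Printed here are the 100 bases before the annotated start of 7 genes, 5′ to 3′, with each CG dinucleotide in capitals. They were chosen to span the range from highly expressed genes to genes listed at 0 in every cell, and every start lay in a private bin. Eef1a1 (chr9:78489152-78489251, minus strand) encodes a translation elongation factor, and Dppa5a (chr9:78368178-78368277, minus strand) encodes an RNA-binding protein of pluripotent cells. Gmnn (chr13:24761924-24762023, minus strand) encodes geminin, which keeps origins from being licensed again, and Igf2r (chr17:12769665-12769764, minus strand) is an imprinted receptor gene. Krt31 (chr11:100050552-100050651, minus strand) and Krtap4-1 (chr11:99628239-99628338, minus strand) encode a hair keratin and a keratin-associated protein, and Olfr498 (chr7:108465226-108465325, plus strand) encodes an olfactory receptor. Coordinates are those of GRCm38, the mm10 assembly.
Eef1a1: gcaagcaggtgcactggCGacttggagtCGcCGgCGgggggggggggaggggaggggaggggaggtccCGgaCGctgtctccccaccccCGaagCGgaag
Dppa5a: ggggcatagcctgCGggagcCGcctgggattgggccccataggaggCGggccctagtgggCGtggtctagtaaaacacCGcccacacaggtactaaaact
Gmnn: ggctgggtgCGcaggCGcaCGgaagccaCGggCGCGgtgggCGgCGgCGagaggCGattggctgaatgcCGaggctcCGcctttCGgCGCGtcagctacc
Igf2r: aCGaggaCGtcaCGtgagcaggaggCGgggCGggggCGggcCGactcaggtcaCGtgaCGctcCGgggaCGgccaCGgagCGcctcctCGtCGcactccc
Krt31: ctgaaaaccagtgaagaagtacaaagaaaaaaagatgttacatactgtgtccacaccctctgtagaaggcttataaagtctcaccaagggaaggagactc
Krtap4-1: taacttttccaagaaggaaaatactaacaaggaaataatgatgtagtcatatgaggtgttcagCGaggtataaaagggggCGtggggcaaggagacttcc
Olfr498: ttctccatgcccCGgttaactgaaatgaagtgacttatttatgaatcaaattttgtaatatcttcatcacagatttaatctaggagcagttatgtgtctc

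Gmnn and Igf2r each held 15 CG in these 100 bases, Eef1a1 held 8, Dppa5a 5, Krtap4-1 2, Olfr498 1 and Krt31 0. Over the 250 bases before the start, the motif CG, which reads the same on both strands, was present in 93.6% of the 2660 protein-coding genes of the private bins and in 92.8% of all 18648 protein-coding genes placed. Promoters with at least 10 CG made up 49.7% in the private bins, 51.2% in bins replicated in all 6 cells and 22% in bins unreplicated in all 6. The private bins were thus close to the bins replicated in every cell and far from the late ones. On 10 of the 17 chromosomes the share was lower in the private bins.

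Cell 6 had the lowest replication score of its embryo, 62.4% of bins with a state, against 74.2% to 80.5% in the other 5 cells. It also had 1264 bins with no data, against 107 to 181 in the others. The private bins were 35.5% of its 19078 unreplicated bins. Seen from the other side, 21.7% of the bins that were replicated in all 5 other cells, and had a state in cell 6, were unreplicated in cell 6. The corresponding count of bins unreplicated in 1 cell alone was 539 for cell 2, 1754 for cell 3, 592 for cell 5, 397 for cell 7 and 618 for cell 8. Just outside the rule were 2191 bins that were unreplicated in cell 6 and in 1 other cell. The other cell was cell 3 in 911 of these (41.6%) and any of the remaining cells in 268 to 369. A further 70 bins were unreplicated in cell 6 with 1 other cell lacking data, and in 191 bins the 5 others were replicated and cell 6 lacked data.

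**Figure D1:**
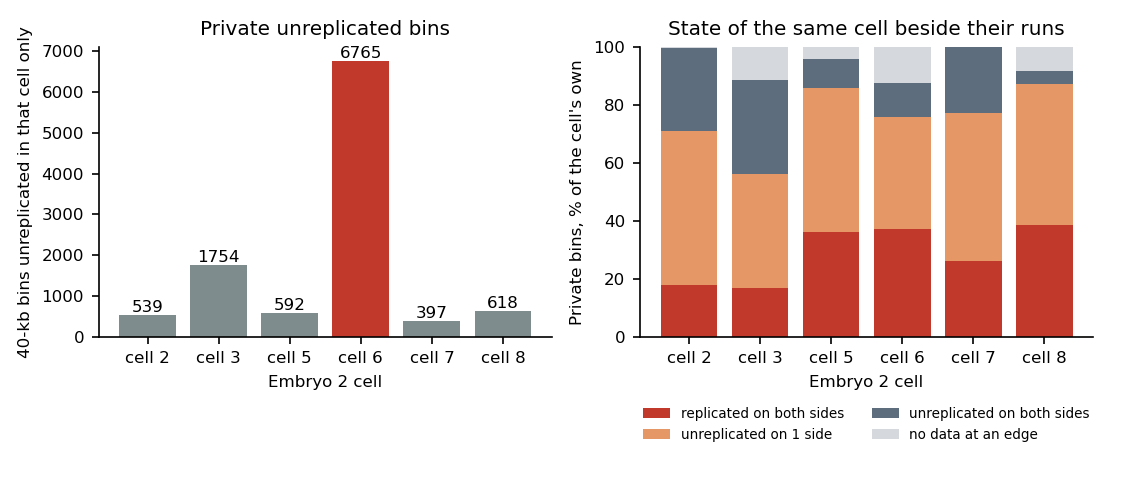
Left, bars give the number of 40-kb bins unreplicated in each embryo 2 cell alone, with 6765 for cell 6 and 397 to 1754 for the other 5. Right, stacked bars give the percent of each cell's private bins by the state of the same cell directly beside their run, and 37.2% of those of cell 6 lay in runs with the cell replicated on both sides. The class with no data at an edge includes edges where no adjacent bin was listed.

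The private bins formed 698 runs of adjacent bins with a median length of 240 kb. In the other 5 cells the median length was 120 to 200 kb. Runs of 3 or more bins held 96.9% of the private bins and 242 runs of at least 10 bins held 71.8%, so isolated bins contributed little, with 79 runs of 1 bin. Of the 698 runs, 260 (37.2%) had cell 6 replicated on both sides and 286 (41%) had it unreplicated on 1 side. A further 70 runs (10%) had it unreplicated on both sides. The remaining 82 runs had an edge where cell 6 had no data or where no adjacent bin was listed. Directly beside a bin without data in cell 6 lay 35 private bins (0.517%), against 0.414% of all bins and 0.041% of bins replicated in all 6 cells. Blocks standing alone in replicated sequence held 37.2% of the private bins, runs unreplicated on 1 side 38.8% and runs unreplicated on both sides 11.7%. Cell 6 had 1017 unreplicated domains, against 443 to 533 in the other cells. Of these, 311 (30.6%) were made of private bins alone, and ends at missing data or at absent bins were allowed. In the others this share was 3.06% to 7.57%. These 311 domains held 3069 private bins, or 45.4%. The share of private bins in such domains was 43.2% in cell 8, 40.2% in cell 5 and 18.3% to 26.2% in cells 2, 3 and 7, so cell 6 was close to cells 5 and 8. In contrast, 60 domains joined private bins to bins unreplicated in all 6 cells, and they held 581 private bins, or 8.59%.

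Missing data in cell 6 lay near some of the private bins. Of the private bins, 7.08% lay within 400 kb of a bin without data in cell 6, against 6.97% of all bins. The share was higher than the 0.93% of bins replicated in all 6 cells. Bins unreplicated in all 6 cells had such a neighbour in 15.8% of cases. Without the private bins near missing data 6286 remained. The part of missing data in the states of cell 6 was not tested.

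Private bins lay on all 17 chromosomes of the table, which holds no bins of chromosomes 6, 10, X and Y. Their share of the bins ran from 6.01% on chromosome 11 and 6.28% on chromosome 16 to 18.1% on chromosome 4 and 20.8% on chromosome 8. Chromosome 1 held the most, 738. The low share on chromosome 11 moved with cell 3. That cell was unreplicated in 49.2% of chromosome 11 and in 48.8% of chromosome 3, more than in any other chromosome, and the rule leaves out what cell 3 shares with cell 6. When the state of cell 3 was ignored, the share on chromosome 11 was 12.2% in place of 6.01% and on chromosome 3 it was 16.3% in place of 10.1%. Chromosome 16 was low for both, with 6.28% and 6.58%. There cell 6 was unreplicated in 39.1% of bins, cell 2 in 39.1%, and the remaining cells in 30.6% to 35.9%, and private bins were 16.1% of the unreplicated bins of cell 6. On chromosome 19 they were 56.8%. In the first 5 Mb of binned sequence 22.7% of bins were private, and in the last 5 Mb 19.5% were, against 13% overall. The first 5 Mb exceeded the chromosome's own share on 10 of 17 chromosomes and the last 5 Mb on 11, so neither end was high throughout.

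**Figure D2:**
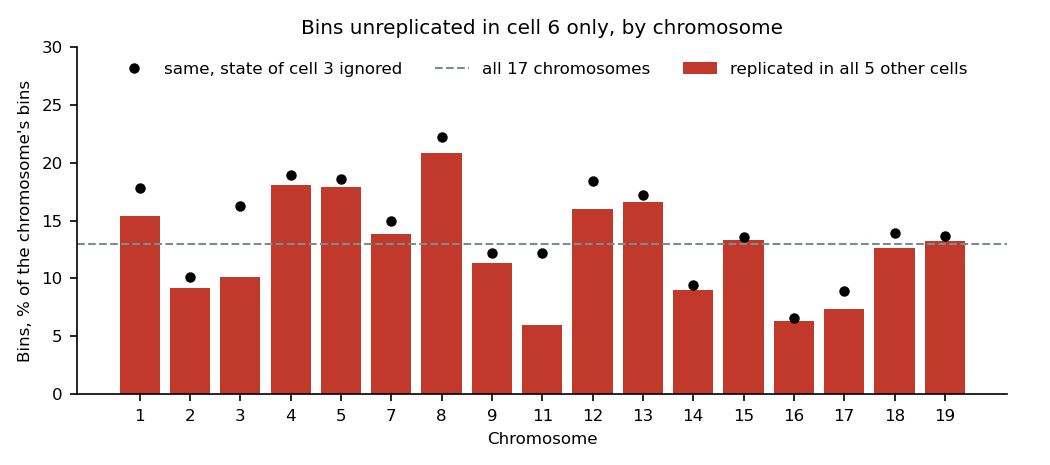
Bars give the percent of the bins of each chromosome that were unreplicated in cell 6 and replicated in the 5 other embryo 2 cells, and points give the same with the state of cell 3 ignored. The dashed line is the 13% over all 17 chromosomes, with chromosome 8 highest at 20.8% and chromosome 11 moving from 6.01% to 12.2%.

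Most private bins were far from late domains. Late bins are here the 4027 bins unreplicated in all 6 cells. The median distance from a private bin to the nearest late bin was 4280 kb (quartiles 1840 and 9320 kb), against 5440 kb for bins replicated in all 6 cells. Within 400 kb of a late bin lay 1.85% of private bins and 1.51% of bins replicated in all 6. For bins unreplicated in 5 of the 6 cells the median distance was 160 kb, with 68.9% within 400 kb. Bins private to cell 2, 5, 7 or 8 had a median of 3400 kb, with 7.97% within 400 kb. Bins private to cell 3 lay farther away than those of cell 6, with a median of 7200 kb and 4.33% within 400 kb. Late bins defined without cell 6, as the 4963 bins unreplicated in all 5 others, gave 2.14% of private bins within 400 kb and a median of 4160 kb. The classes share the states that chose the private bins, so these distances are a description.

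Distance still graded the private bins weakly. Among bins replicated in the 5 other cells, the share that was private to cell 6 was 24.6% at 200 to 400 kb from a late bin, 25.2% at 400 to 800 kb, 26.8% at 800 to 1600 kb, 25.6% at 1600 to 3200 kb and 19.4% farther away. It was thus level up to 3200 kb and lower beyond. Of the 34 such bins at 40 to 200 kb, 11 were private. Counting all bins in a distance class, cell 6 and the others were alike close to late bins and apart from them far away. At 40 to 200 kb cell 6 was unreplicated in 72.1% of bins and the others in 65.2% to 74.7%. At 3200 kb or more, cell 6 was unreplicated in 24.9% and the others in 4.63% to 12.6%, with cell 3 the highest of these.

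**Figure D3:**
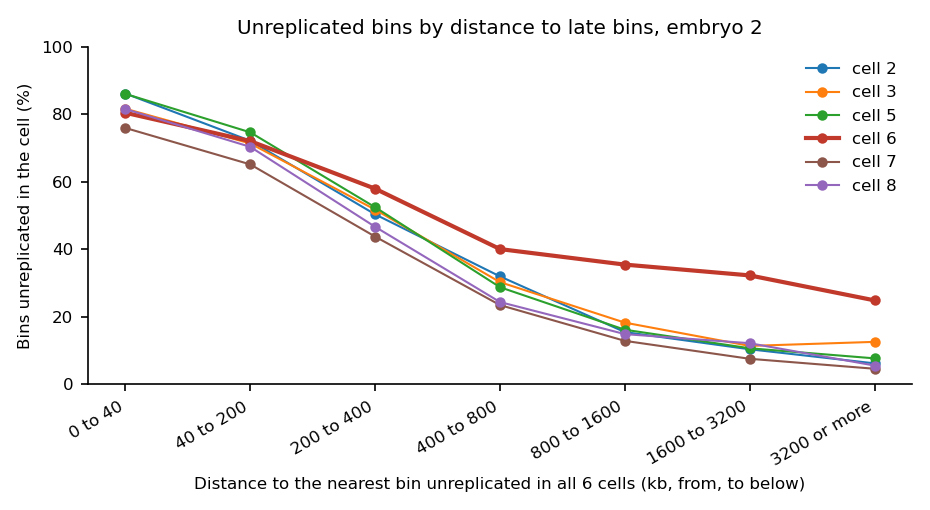
Lines give, for each embryo 2 cell, the percent of bins called unreplicated (vertical axis) in classes of distance to the nearest bin unreplicated in all 6 cells (horizontal axis, kb; late bins themselves left out). Cell 6 lies among the others below 200 kb and above all of them from 200 kb on, with 24.9% at 3200 kb or more.

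The sequence of the private bins, which the rule did not use, was that of early rather than late replicating domains. Their median GC content was 42.5% (quartiles 40.3% and 45.2%), against 43.6% in bins replicated in all 6 cells and 37.5% in bins unreplicated in all 6. On single chromosomes the private bins were below the bins replicated in all 6 on 14 of 17 and above the late bins on 17 of 17. The difference from bins replicated in all 6 averaged -0.971 percentage points over chromosomes ± 0.958 (SD, n = 17 chromosomes), from -3.13 on chromosome 4 to 0.56 on chromosome 11. Bins private to cells 2, 5, 7 or 8 had a median GC of 40.8%, and those private to cell 3 had 42%. Soft-masked repeats covered a median of 28.4% of a private bin and 28.4% of a bin replicated in all 6, against 37.6% of a late bin.

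Gene density followed the same order. Starts of protein-coding genes numbered 9.87 per Mb in private bins (2671 starts), 12.5 per Mb in bins replicated in all 6 and 1.24 per Mb in late bins. The private bins were below the bins replicated in all 6 on 15 of 17 chromosomes, with chromosomes 11 and 18 the exceptions, and above the late bins on 17 of 17. A protein-coding start lay in 27.6% of private bins, 34.5% of bins replicated in all 6 and 4.15% of late bins.

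**Figure D4:**
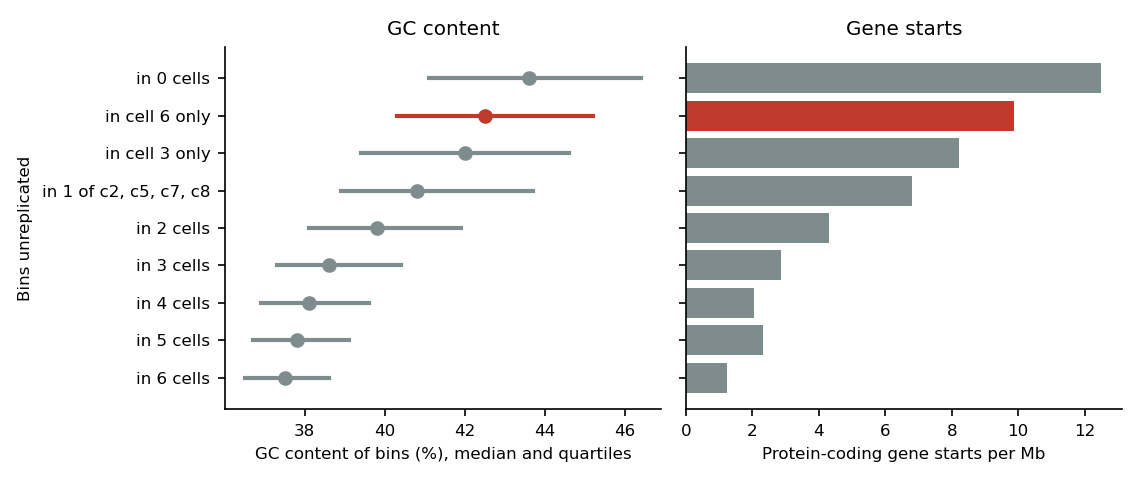
Left, points and lines give the median and quartiles of GC content of 40-kb bins by the embryo 2 cells in which they were unreplicated. Right, bars give protein-coding gene starts per Mb, with 9.87 in the private bins of cell 6, between 12.5 in bins replicated in all 6 cells and 8.21 in bins private to cell 3.

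Within the bins that the 5 other cells had replicated, those still unreplicated in cell 6 were more frequent where GC content was low. In 5 classes of equal size from lowest to highest GC content, 27.4%, 25%, 21.9%, 17.3% and 16.9% of bins were private to cell 6. The lowest class exceeded the highest on 12 of 17 chromosomes. Bins without a protein-coding start were private in 23.4% of cases and bins with at least 1 start in 18.2%. The composition also differed by surroundings. Private bins in runs with cell 6 replicated on both sides had a median GC of 43.3%, 10.9 protein-coding starts per Mb and a median distance to late bins of 5400 kb. Those in runs unreplicated on both sides had 41.1%, 7.41 per Mb and 2880 kb.

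The longest run spanned 79 bins, or 3160 kb, at chr1:10960001-14120000, and its nearest late bin was 26880 kb away. It held 9 protein-coding genes, 3 of them with a mean above 1 TPM over the 6 cells. These were Ncoa2, a nuclear receptor coactivator, Tram1, a translocation protein of the endoplasmic reticulum, and Lactb2, a ribonuclease of mitochondria. Tram1 had 42.16 TPM in cell 6 and 14.64 to 23.49 TPM in the other 5 cells, so that cell 6 was highest with no overlap, by 1.08 on the log2(TPM + 1) scale. Lactb2 had 161.14 TPM in cell 6 within a range of 88.65 to 164.04 TPM. Prdm14, a repressor of pluripotent and germ cells in the same run, was listed at 0 in cell 6 and had at most 1.22 TPM in the others.

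The next run, of 74 bins at chr13:30280001-33240000, held a serpin cluster and the forkhead genes Foxq1, Foxf2 and Foxc1. Of its 23 protein-coding genes 7 had a mean above 1 TPM, and of the 8 serpin genes 7 were listed at 0 in all 6 cells. The most abundant was Uqcrfs1, a subunit of mitochondrial complex III, with 75.61 TPM in cell 6 and 74.46 to 122.85 TPM in the others. The run of 69 bins at chr3:85840001-88600000 was richest in genes, with 54, of which 29 had a mean above 1 TPM. It held Cct3, a chaperonin subunit, with 526.43 TPM in cell 6 and 470.70 to 798.16 TPM in the others, which overlapped. Hdgf, a growth factor gene, had 449.96 TPM in cell 6 and 438.39 to 569.16 TPM. Gpatch4 in this run had 7.94 TPM in cell 6, below the 18.77 to 29.24 TPM of the others. The run of 67 bins at chr5:21000001-23680000 held Orc5, Reln and Kmt2e among 18 genes. The run of 66 bins at chr19:14320001-16960000 held 7 genes, among them Psat1, an enzyme of serine synthesis, with 476.85 TPM in cell 6 and 336.15 to 590.40 TPM in the others, and Tle4, a corepressor, with 140.65 TPM against 90.44 to 282.92 TPM. Over these 5 runs, 56 genes had a mean above 1 TPM. In 7 of them (12.5%) cell 6 was above each of the other 5 cells, against a background of 12.6% of all 11607 genes tested, and in 10 (17.9%) it was below each of them, against 21%. The 7 included Tram1, Rps3a1, Rrnad1 and Pmpcb, a mitochondrial peptidase with 117.37 TPM in cell 6 and 48.03 to 98.56 TPM in the others. The 10 included Gpatch4, Orc5, the cochaperone gene Dnajc2, and Armc10, which had 18.39 TPM in cell 6 and 30.17 to 43.86 TPM in the others.

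A gene was assigned to the private bins if at least 50% of its length lay in them. This held for 6179 of 45222 genes (13.7%) and for 2660 of 18648 protein-coding genes (14.3%). Members of the gene lists can share a run and are then not independent. Of 18 pluripotency factors placed, 6 lay in private bins, each in a run of its own on a different chromosome, and 11 lay in bins replicated in all 6 cells. These 6 were Prdm14, Tbx3, Utf1, Zfp42, Dppa5a and Esrrb. Dppa5a had 2355.33 TPM in cell 6, above the 1685.03 to 2199.15 TPM of the other 5 cells. Zfp42 (Rex1, a marker of naive pluripotency) had 65.85 TPM in cell 6 within 43.05 to 78.06 TPM. Esrrb, an orphan nuclear receptor, had 20.59 TPM in cell 6 and 35.91 to 45.61 TPM in the others, so that cell 6 was lowest with no overlap. Utf1 had 6.61 TPM in cell 6, also below the others, which had 20.09 to 86.12 TPM, and the 3 embryo 1 cells had 26.57 to 177.10 TPM. Tbx3 had 66.95 TPM in cell 6 within 62.66 to 119.45 TPM. The values of these factors in cell 6 therefore lay on both sides of those in the other cells. Of all 11607 genes tested, cell 6 was above each of the other 5 cells in 12.6% and below each in 21%.

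Of 49 genes of the replication machinery, 9 lay in private bins and 39 in bins replicated in all 6 cells. All 9 had a mean above 1 TPM, 1 was at least 2-fold lower in cell 6 and 0 were 2-fold higher, where 23.7% and 12.2% of all genes tested were. Gmnn had 162.61 TPM in cell 6 and 228.13 to 394.05 TPM in the others. Cell 6 was thus lowest, by 0.76 on the log2 scale, and the embryo 1 cells had 185.88 to 375.52 TPM. Mtbp, a partner in origin firing, had 9.12 TPM in cell 6 and 14.35 to 72.39 TPM, which made it the gene with the 2-fold difference. Mcm5, a subunit of the replicative helicase, had 36.52 TPM within 27.04 to 79.51 TPM. Dbf4, the activator of the CDC7 kinase, had 75.64 TPM within 70.05 to 149.90 TPM. Orc2, Rfc3, Gins4 and Pola2 also had cell 6 inside the range of the others. Orc5, a subunit of the origin recognition complex, had 27.59 TPM in cell 6, just below the 28.44 to 77.61 TPM of the others. Cell 6 was below each of the other 5 cells in 21% of all genes tested.

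Imprinted genes, which can be expressed from 1 parental copy, had 13 of 30 placed genes (43.3%) in private bins, but in 5 runs. The run at chr7:142160001-143000000 held H19, Igf2 and Ascl2, and that at chr7:143240001-143600000 held Kcnq1ot1, Cdkn1c and Phlda2. The run at chr12:109440001-110000000 held Dlk1, Meg3, Rian and Mirg, that at chr17:12600001-13040000 held Igf2r and Airn, and that at chr9:89920001-90280000 held Rasgrf1. Of the 13 genes, 3 (H19, Dlk1 and Mirg) were listed at 0 in all 6 cells and 2 (Igf2r and Igf2) had a mean above 1 TPM. Igf2r was the most abundant, with 51.27 TPM in cell 6, 51.23 TPM in cell 5, and 96.46 to 168.74 TPM in the other 4 cells. Igf2r and Airn overlap in opposite directions, and whether reads were assigned by strand was not given in the sources used here. The tables do not separate the parental copies. In its mouse embryonic stem cells the study found Igf2r expressed from both copies.

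Tissue-specific gene clusters made up another group. The protocadherins, which are adhesion molecules of neurons, had 53 of 66 genes in 3 neighbouring runs of chromosome 18, and 49 of the 53 were listed at 0 in all 6 cells. Genes named Krt, the keratins and hair keratin-associated proteins, had 43 of 110 in 4 runs, 31 of them in the run at chr11:99600001-100440000, and 37 were listed at 0 in all 6 cells. Krtcap3, 1 of the 43 and singled out after its values were seen, is no keratin. Olfactory receptors had 71 of 1030 (6.89%) in 15 runs, and 61 of the 71 were listed at 0 in all 6 cells. Olfr506, chosen after its values were seen, had 203.28 TPM in cell 6 and 86.93 to 212.49 TPM in the others. Vomeronasal receptors had 14 of 261 (5.36%) in private bins, against 14.3% of all protein-coding genes. Histone and Hox genes had 0 of 66 and 0 of 28 in private bins, and genes of compaction and polarity 0 of 14. Zinc finger protein genes had 29 of 365 (7.95%), serpins 8 of 60 (13.3%) in 1 run, solute carriers 48 of 326 (14.7%) in 41 runs, cytochromes P450 2 of 100 and Obox genes 0 of 7. Of the 21 two-cell stage genes 5 lay in private bins, 3 of them Zscan4 copies in 1 run, whose near-identical sequences make their TPM uncertain. The other early lists had 1 gene each in private bins, Wwtr1 of 13 trophectoderm and Hippo genes, Fgf4 of 10 primitive endoderm and FGF genes, and Ooep of 14 maternal genes.

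Protein-coding genes of the private bins were detected in these embryos nearly as often as genes of the bins replicated in all 6 cells. In cell 6, 43.2% of the 2660 genes had more than 1 TPM, against 47.4% of the 12226 genes replicated in all 6 and 4% of the 200 late genes. In the other 5 embryo 2 cells the shares were 44.8% to 48.9%, 48.6% to 54.7% and 1.5% to 5.5%. In the other scRR1 cells of embryo 2 alone, genes of the private bins were detected at 44.8% to 46.1%, above the 43.2% of cell 6. Embryo 1, which the rule did not use, gave 43.4% to 50.7%, 48.7% to 55.9% and 4% to 6%. The private bins were lower than the bins replicated in all 6 in 9 of 9 cells, by a mean of 5.02 percentage points ± 0.795 (SD, n = 9 cells). This was not so on every chromosome, since in embryo 1 the private bins were lower on 11 of 17. Among genes of the 2 classes, the share in private bins was 19.6% where the mean TPM over embryo 1 cells was below 1, 16.6% at 1 to 10, 16.7% at 10 to 100, 14.4% at 100 to 1000 and 13.3% (12 genes of 90) at 1000 or more.

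RNA of the genes in private bins differed little in cell 6 from that of genes replicated in every cell, with a sign that depended on the cells compared. For the 1626 genes of private bins with a mean above 1 TPM over the 6 cells, the median of log2(TPM + 1) in cell 6 minus the mean of the other 5 was -0.28. For the 8215 genes in bins replicated in all 6 it was -0.29, and for all 11607 genes tested it was -0.30. The difference between the first pair was 0.0104, smaller than the SD of the same difference over the 6 cells, 0.0445. In the other cells, in which these bins were replicated, it was 0.00241 in cell 2, -0.0779 in cell 3, 0.0205 in cell 5, -0.000414 in cell 7 and 0.0575 in cell 8. Cell 6 thus lay inside the range of cells that had replicated the bins. The median below 0 was shared by all gene classes of cell 6, which also had the lowest share of detected genes among embryo 2 cells. Within scRR1 alone, against cells 5, 7 and 8, the medians in cell 6 were -0.17 for genes of private bins and -0.14 for genes replicated in all 6. Their difference of -0.0332 was the lowest of the 4 scRR1 cells, the other 3 having 0.00431, 0.0185 and 0.0264, and it was larger than the SD of 0.0264 over these 4 cells. In the transcript table the difference from all 5 cells was 0.0563. This was above the SD of 0.0445, but that SD came from genes, and no SD over cells was computed for transcripts. With a single such cell, its replication state and other traits of that cell cannot be told apart. TPM are shares of a fixed total, so a difference in total RNA per cell cannot be seen in them.

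Counts past 2-fold gave the same picture. Of the 1626 genes, 191 (11.7%) were at least 2-fold higher in cell 6 than the mean of the other 5 on the log2(TPM + 1) scale, against a background of 12.2% of all genes tested. At least 2-fold lower were 382 (23.5%), against 23.7%. Against the scRR1 cells alone, 215 (13.2%) were higher, with a background of 14.3%, and 384 (23.6%) were lower, with a background of 23%. These shares were near the background.

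**Figure D5:**
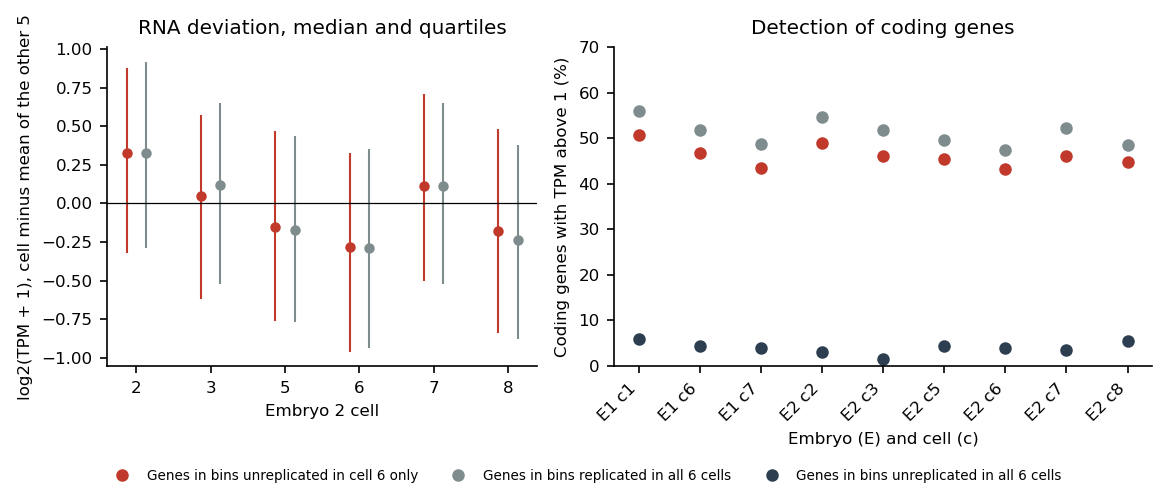
Left, points and lines give the median and quartiles over genes of log2(TPM + 1) in each embryo 2 cell minus the mean of the other 5, for genes in private bins of cell 6 (red) and in bins replicated in all 6 cells (grey); the 2 medians are -0.28 and -0.29 in cell 6. Right, points give the percent of protein-coding genes with more than 1 TPM in each of the 9 cells, with late genes in dark blue at 1.5% to 6%.

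The most abundant genes of the private bins were Lars2, the mitochondrial leucyl-tRNA synthetase, with 6610.31 TPM in cell 6 and 4309.31 to 11489.42 TPM in the others, and ribosomal protein genes. Rplp2 had 5202.87 TPM in cell 6, above the 2557.49 to 4598.35 TPM of the other cells. Rps3a1 had 2659.22 TPM, above 2078.71 to 2437.60 TPM, and Rps23 had 3154.47 TPM, above 889.18 to 2950.44 TPM. For Rps23 the scRR3 cells were low, cells 2 and 3 at 1012.72 and 889.18 TPM and embryo 1 cell 1 at 414.01 TPM. The other scRR1 cells of embryo 2 had 2474.10 to 2950.44 TPM, and embryo 1 cells 6 and 7 had 3147.69 and 2160.91 TPM. Rplp2, Rps3a1 and Rps23 were thus each highest in cell 6. Of all 11607 genes tested, 12.6% were above each of the other 5 cells in cell 6. Rpl22, Rpl34, Rpl4, Rpl7a and Eef1a1 had cell 6 within the range of the others. Ribosomal protein genes and Eef1a1 have processed pseudogenes elsewhere in the genome, and how their reads were divided is uncertain. Of the length of Lars2, 65.5% lay in private bins, and how its reads were assigned was not examined. All genes named with Rpl or Rps had 11 of 91 in private bins, of which Rps6kc1 and Rps6ka2 encode kinases.

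The genes with the largest differences between cell 6 and the mean of the others were chosen for those differences, so they are given as values only. The highest relative to the others was Babam2, a subunit of a BRCA1 complex, with 52.60 TPM in cell 6 and 5.52 to 12.56 TPM in the other 5, a difference of 2.62 on the log2 scale. Lctl had 33.33 TPM against at most 12.98 TPM in the others and Zfp511 had 84.89 TPM against 11.45 to 31.53 TPM. Rrnad1 and 4930447C04Rik differed by 1.84 and 1.82. In the 3 embryo 1 cells Babam2 had 12.49 to 24.19 TPM. The lowest was Spsb4, a ubiquitin ligase adaptor, listed at 0 in cell 6 and with 11.70 to 36.74 TPM in the others. Erfe was listed at 0 in cell 6 with 4.68 to 37.38 TPM in the others, and Oxnad1 had 0.33 TPM against 2.99 to 34.48 TPM. Apoe, the apolipoprotein of lipid transport, had 0.44 TPM against 3.51 to 27.27 TPM. In each of these genes cell 6 stood outside the range of the other 5 cells. Among the 18 genes of at least 500 kb in private bins, 6 had a mean above 1 TPM. Of these, Ptprg, chosen after its values were seen, had 1.54 TPM in cell 6 and 3.33 to 16.44 TPM in the others.

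In the embryo 1 cells few bins of any class were called replicated. These cells therefore could not show whether the bins private to cell 6 of embryo 2 stand apart. The study described uniform profiles in representative embryo 1 cells, apart from regions with chromosomal abnormalities, and classed them as G1 or G2/M. Of the private bins, 246 (3.64%) were called replicated in cell 1, against 3.54% of all bins, 49 (0.725%) in cell 6, against 0.927%, and 0 in cell 7, against 0.00385%. In cell 1, 227 of the 246 lay on chromosome 7. There 49.5% of private bins and 43.2% of all bins were called replicated, and off chromosome 7 the shares were 0.301% and 0.822%. Whether the calls on chromosome 7 reflect a chromosomal abnormality was not tested.

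The RNA columns of both embryos were checked by sex-linked RNA. Xist had 139.95 to 180.72 TPM in the 3 embryo 1 cells and at most 0.90 TPM in embryo 2 cells, and Eif2s3y was listed at 0 in embryo 1 and had 23.05 to 84.71 TPM in embryo 2. Of 19 pluripotency factors 17 had more than 1 TPM in each embryo 2 cell, as had 12 of 14 compaction and polarity genes and 9 of 17 maternal genes.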

How the data were processed

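scRR-seq-DNA and scRR-seq-RNA were analysed for 9 blastomeres, 3 of embryo 1 and 6 of embryo 2, of the 13 cells that the labels describe; the other 4 were not analysed here. The DNA table that the authors deposited holds a score per 40-kb bin of mm10, 1 for replicated, -1 for unreplicated and 0 for no data. The authors aligned reads with bwa (0.7.17-r1188 in the processing notes), corrected mappability against embryo cells classed as G1-like or G2/M-like, removed blacklisted regions and called states with AneuFinder. The gene and transcript tables that the authors deposited hold TPM from RSEM in the ramdaq pipeline with GENCODE M25. Neither table keeps read depth, so its precision was not estimated and no counting interval is given. Each also has 14 columns that belong to no sample of this series, which were not used. RNA headers repeat 1 cell name, so RNA columns were matched to samples by the closing number of the title.

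The private bins, comparison classes, gene lists and alternatives were chosen with earlier results of these data known. Genes were placed with GENCODE M21 (55227 of 55487 identifiers found, versions ignored) and GC, repeats and promoters were read from GRCm38.p6. Genes with a mean above 1 TPM over the 6 embryo 2 cells were compared as log2(TPM + 1), which understates differences of low genes. Named genes were the 10 most abundant protein-coding genes of the private bins, the 5 highest and 5 lowest in cell 6 relative to the others among those whose log2(TPM + 1) averaged 3 or more, genes of the curated lists, and protein-coding genes of the 5 longest runs; a few others are marked as chosen after their values were seen. Some genes that this rule names are not reported here. Protocols were taken from the sample list of the study, since the labels do not give them. No test of a difference was run, since 1 cell stands against 5 of the same embryo. Dixon's gap ratio, with a critical value of 0.625 for 6 cells, served only to list outlying cells. Scripts were tested on simulated data. Python 3.11.15, numpy 2.4.6, pandas 2.3.3 and matplotlib 3.10.9 were used.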

Additional observations from a re-analysis of the deposited data

Results flagged for a closer look

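Dixon's gap ratio was computed over the 6 embryo 2 cells for 9 measures other than single genes. Cell 6 lay far from the other 5 cells in 5 of them, all from the DNA data. All but the number of bins without data come from the states on which cell 6 and its private bins were chosen, so they describe that choice. Cell 6 was not chosen on its number of bins without data, and the cause of that number was not tested. The measures can depend on each other and are set against no chance rate. Cell 6 had 62.4% of bins replicated (others 74.2% to 80.5%), 1264 bins without data (107 to 181), 6765 private bins (397 to 1754), 1017 unreplicated domains (443 to 533) and 30.6% of domains made of private bins alone (3.06% to 7.57%).

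Of 92 named genes, 6 had 1 cell far from the others, where chance flags about 1 in 20 groups, or 4.6 of 92, and 2 of the 6, Babam2 and Spsb4, were named for their differences. In cell 6, Babam2 had 52.60 TPM (others 5.52 to 12.56), Esrrb 20.59 TPM (35.91 to 45.61), Gpatch4 7.94 TPM (18.77 to 29.24) and Spsb4 0.00 TPM (11.70 to 36.74). Lmna had 37.13 TPM in cell 2 (9.65 to 16.07) and Tsacc 0.00 TPM in cell 5 (4.38 to 9.89).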

How the results depend on the processing

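Of 38 alternative settings, 33 left the value within the spread over chromosomes or cells, or within 1.5 times for counts. The number of private bins was 7049 to 7690 when 1 of the 5 other cells was left out of the rule, 6552 in runs of 3 or more bins and 6027 without chromosome 1. The share within 400 kb of late bins was 5.06% with late bins unreplicated in at least 5 of 6 cells (3.56% for bins replicated in all 6) and 0.266% with a limit of 200 kb. With all annotated genes the density was 23.1 starts per Mb. For RNA, the difference between genes of private bins and genes replicated in all 6, 0.0104, was -0.279 without subtracting the genes replicated in all 6 and 0.0563 in the transcript table. Against cells 5, 7 and 8, the other scRR1 cells, it was -0.0332, and leaving out each other cell gave -0.00596 to 0.0187, so its sign depended on the cells used. The cause of these shifts was not tested. Settings added after seeing the data were late bins from the 5 other cells, leaving out bins near missing data, and leaving out chromosome 7 in embryo 1. No paired analysis was possible because no test was run and equal cell numbers in the 2 embryos mark different blastomeres. Depth is not kept in the tables, and the coverage that the study reports was not used here. How far depth limits each state and TPM was therefore not examined.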

Other observations

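Promoter composition graded detection of the genes in private bins. Of the 1323 protein-coding genes with at least 10 CG in the 250 bases before the start, 62.3% had more than 1 TPM in cell 6, and of the 1337 with fewer, 24.4% had. In the other 8 cells the shares were 62.7% to 71.4% and 24.3% to 30.2%, with no overlap between the classes. In cell 6 the median deviation in log2(TPM + 1) from the other 5 cells was -0.26 for the first class and -0.29 for the second.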
